A study of Mus musculus with 2 samples.

Results

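The genes described are 8 of the 27998 in the count tables: the retinal dehydrogenases Aldh1a1, Aldh1a2 and Aldh1a3, the retinoic acid hydroxylases Cyp26a1 and Cyp26b1, the intracellular carriers Crabp1 and Crabp2, and the plasma carrier Rbp4. They were chosen by their measured values in these same libraries, as genes whose summed counts differed between the cell classes, so every class difference below is a description and carries no test. Their levels were read in 3 classes of cells: Scx-high cells, with at least 30 UMIs (unique transcript molecules) of the tendon transcription factor Scleraxis per 10000 UMIs of the cell; Scx-low fibroblasts, with at least 5 UMIs over the 5 genes Ly6a, Cd34, Dpt, Lum and Col3a1; and all other cells.

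Cells were released enzymatically from fore- and hindlimb tendons of mouse pups at postnatal day 7 (P7), pooled from 2 pups per library, and 1 library was made for each genotype by droplet capture of transcript 3′ ends. The mutant, Tgfbr2;ScxCre, carried a floxed allele of the type II TGFβ receptor over a null allele and was recombined by Cre driven from Scleraxis regulatory sequences, so that Cre acts in Scx-expressing cells. Mice of the study also carried the ScxGFP reporter and the Ai14 tdTomato Cre reporter. The paper states that its Scx level includes that of ScxGFP, so the Scx limit used here applies to both together. The labels of the control disagree: its title and genotype field say wild-type, its description says Het, and the former name is used here. With 1 library per genotype, library and genotype cannot be told apart, no test between genotypes exists, and every interval given below is an exact 95% interval that covers counting error only.

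The wild-type library held 2364 cells and 9451606 UMIs (median 3866.5 per cell) and the mutant library 2592 cells and 8250248 UMIs (median 2828), with 2 barcodes shared. Scx-high cells made up 1178 wild-type cells (49.8%) but 235 mutant cells (9.07%), and Scx-low fibroblasts 828 (35.0%) and 1910 (73.7%). Of the Scx-high cells, 191 of the wild-type (16.2%) and 182 of the mutant (77.4%) also held 5 or more UMIs of the fibroblast genes. The paper describes ScxGFP-positive cells of mutant tendons as newly recruited and, from lineage tracing, ScxGFP-negative ones as derived from tenocytes. Cells of the same class in the 2 libraries may therefore differ in origin, which was not tested here. For these libraries the paper left out the scraping that removes cells of the epitenon and paratenon, the layers around the tendon. It found Sca-1, the product of Ly6a, and CD34 in wild-type epitenon, and both genes are in the fibroblast rule. How many such cells the fibroblast class holds was not tested. A list of 6 tenocyte markers (Tnmd, Fmod, Thbs4, Mkx, Kera and Col11a1), all detected in every class, summed to 16281 CPM (UMIs per 1000000 UMIs of the class) in wild-type and 10780 in mutant Scx-high cells, against 1930 and 2743 in Scx-low fibroblasts. Thbs4 was higher in mutant than in wild-type Scx-high cells (1781 against 1142 CPM), whereas Tnmd, Fmod, Mkx, Kera and Col11a1 were lower. Kera stood at 681 CPM in mutant Scx-high cells and 561 in mutant fibroblasts. The 6 fibroblast markers summed to 13259 CPM in wild-type and 7531 in mutant Scx-high cells against 11984 and 11789 in fibroblasts, with decorin (Dcn) the largest part in every one of these, and the other markers differed among themselves. Pi16 stood at 16.6 CPM in mutant Scx-high cells against 296 in mutant fibroblasts, and Mfap5 at 1531 against 1727, whereas in the wild-type Mfap5 stood at 57.6 against 2938. Tgfbr2 itself was counted at 30.9 CPM in Scx-high cells and 64.8 in fibroblasts of the wild-type and at 45.2 and 72.6 in the mutant, but 3′ end counts do not show whether a floxed exon was lost and so do not check the labels. In the mutant, Scx-high cells held more of a skeletal muscle marker list (166 CPM against 10.2 in the wild-type) and fibroblasts more of the Schwann list (355 against 69.0) and less of the mural list (167 against 759); their part in the values below was not tested.

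Retinoic acid, the active form of vitamin A, is made from retinol in 2 oxidations, and the second one, from retinal to retinoic acid, is catalysed by the ALDH1A enzymes. The CYP26 enzymes hydroxylate retinoic acid and so end its action, and Cyp26a1 is a textbook example of a gene that retinoic acid itself induces. CRABP proteins bind retinoic acid in the cytoplasm, CRABP2 being known for delivering it to nuclear receptors, and RBP4 carries retinol in blood. In the embryonic limb, tissue that makes and tissue that degrades retinoic acid lie side by side. The counts are of RNA and say nothing of enzyme activity or of retinoic acid levels.

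**Figure D1:**
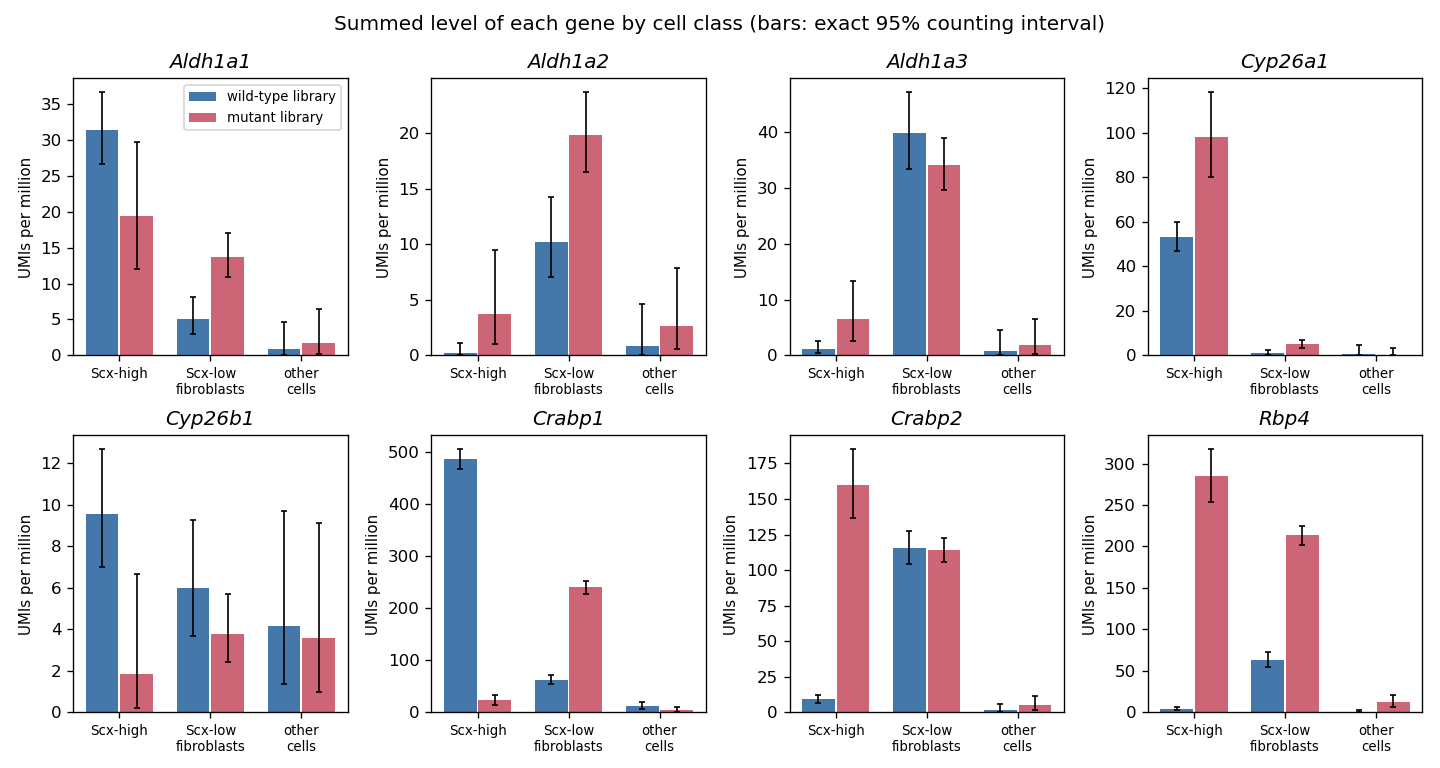
Summed CPM (linear axes, each from 0) of the 8 genes in Scx-high cells, Scx-low fibroblasts and other cells of the wild-type (blue) and mutant (red) library, 1 bar per class and library; error bars are exact Poisson 95% intervals. Cyp26a1 is highest in Scx-high cells of both libraries and Aldh1a3 in Scx-low fibroblasts of both. Crabp1, Crabp2, Rbp4 and Cyp26b1 have another highest class in the mutant library. For Cyp26b1 this rests on 2 UMIs in mutant Scx-high cells, and for Crabp2 and Rbp4 it depends on which Scx-high cells are counted.

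Among the genes that make retinoic acid, 1 dehydrogenase was most abundant in Scx-high cells and the other 2 in Scx-low fibroblasts. Aldh1a1 (chr19:20492715-20643465) was counted at 31.3 CPM in wild-type Scx-high cells (154 UMIs in 139 of 1178 cells), 5.10 in fibroblasts and 0.831 in other cells. In the mutant library it stood at 19.4 in Scx-high cells (21 UMIs in 21 of 235 cells), 13.7 in fibroblasts and 1.79 in other cells. Wild-type Scx-high cells thus held 6.14 times the fibroblast level (interval 3.71 to 10.8), whereas in the mutant the ratio was 1.41 and its interval, 0.831 to 2.30, included equality.

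Aldh1a2 (chr9:71215789-71296243) and Aldh1a3 (chr7:66390890-66427517) lay on the other side. Aldh1a3 reached 39.9 CPM in wild-type fibroblasts (133 UMIs in 74 of 828 cells) and 34.1 in mutant fibroblasts (206 UMIs in 156 of 1910 cells), against 1.22 and 6.46 in Scx-high cells, where only 6 and 7 UMIs were counted. The fibroblast level was 32.7 times that of Scx-high cells in the wild-type (14.6 to 90.7) and 5.27 times in the mutant (2.51 to 13.3). Aldh1a3 was the dehydrogenase with the closest levels in the 2 libraries' fibroblasts: the mutant to wild-type ratio was 0.853 (0.683 to 1.07).

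Aldh1a2, the dehydrogenase on which early embryos depend, was counted at 10.2 CPM in wild-type fibroblasts (34 UMIs in 20 cells) and 19.8 in mutant fibroblasts (120 UMIs in 85 cells), and at 1 and 4 UMIs in all Scx-high cells of the 2 libraries. The fibroblast to Scx-high ratio was 50.2 in the wild-type, with an interval from 8.41 to 2038 that rests on the single Scx-high UMI, and 5.37 in the mutant (2.04 to 20.04). Without the 5 cells of each class with most Aldh1a2 UMIs, the mutant to wild-type ratio in fibroblasts was 3.23 in place of 1.94 (1.32 to 2.94), since 5 wild-type cells held 50% of that library's fibroblast UMIs of the gene.

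Within fibroblasts, the levels of both genes varied with other markers. In mutant fibroblasts with a UMI of Pi16, a marker of adventitial-type fibroblasts, Aldh1a2 stood at 43.2 CPM (32.5 to 56.2), against 13.6 (10.5 to 17.4) in those without. In the wild-type library the order was the other way and the intervals overlapped, at 5.24 (2.11 to 10.8) with Pi16 and 13.5 (8.91 to 19.7) without. Aldh1a3 was at 40.5 and 39.6 CPM with and without Pi16 in the wild-type and at 44.8 and 31.2 in the mutant. Both libraries had less Aldh1a3 in fibroblasts with 2 or more UMIs of the tendon gene Tnmd, at 19.6 (11.6 to 30.9) against 47.7 (39.4 to 57.2) in the wild-type and 22.5 (16.7 to 29.8) against 40.5 (34.4 to 47.4) in the mutant. Aldh1a2 had the same order on this split, at 7.36 (4.20 to 11.9) against 26.9 (21.9 to 32.5) in the mutant and, with overlapping intervals, 5.44 (1.77 to 12.7) against 12.02 (8.05 to 17.3) in the wild-type.

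Cyp26a1 (chr19:37697798-37701536) was highest in Scx-high cells of both libraries. It was counted at 53.1 CPM in wild-type Scx-high cells (261 UMIs in 142 of 1178 cells), with 3 UMIs in all fibroblasts and 1 in other cells, so that Scx-high cells held 98.5% of the library's Cyp26a1 UMIs. In the mutant library Scx-high cells stood at 97.9 CPM (106 UMIs in 42 of 235 cells), fibroblasts at 4.96 (30 UMIs in 15 of 1910 cells) and other cells had a UMI in 0 of 447 cells, which allows a share of cells with a UMI of up to 0.671% and does not limit the share that expresses the gene. Mutant Scx-high cells held 77.9% of their library's Cyp26a1 UMIs and fibroblasts 22.1%. Scx-high cells exceeded fibroblasts 59.0-fold in the wild-type (19.96 to 288) and 19.7-fold in the mutant (13.05 to 30.7).

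Between libraries the Cyp26a1 level per Scx-high cell and the level of the whole library moved apart. Mutant Scx-high cells held 1.84 times the wild-type level (1.46 to 2.32), but the ratio was 1.34 without the 5 highest cells of each library, since 5 mutant cells held 39.6% of the UMIs. Over all cells the mutant library held 0.588 times the wild-type level (0.475 to 0.726), beside a share of Scx-high cells of 9.07% against 49.8%. Such a whole-library value mixes the number of cells of each class with the level within it. In fibroblasts the mutant to wild-type ratio of Cyp26a1 was 5.51 (1.71 to 28.2), which rests on 3 wild-type UMIs. Wild-type Scx-high cells with 3 or more UMIs of the cartilage collagen gene Col2a1, which were also deeper (median 4815 against 3164 UMIs), stood at 62.4 CPM of Cyp26a1 (54.2 to 71.5), against 33.8 (25.4 to 44.0) in those with fewer. In the mutant the same split gave 361 CPM (220 to 557) in 13 cells and 83.7 (66.9 to 103) in the others. Cycling wild-type Scx-high cells, with 2 or more UMIs over 8 cell cycle genes, stood at 17.1 (7.37 to 33.6), against 56.9 (50.1 to 64.4) in the others. In the mutant the intervals overlapped, at 94.4 (58.4 to 144) in cycling Scx-high cells and 98.8 (78.9 to 122) in the others.

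The stretch before the Cyp26a1 start is shown because, of the members whose promoter windows could be read, it alone held a repeat of the kind that retinoic acid receptors are known to bind. The windows were 300 bases around RefSeq starts on GRCm38.p6, found for 6 members (8 windows; Aldh1a3 and Crabp2 were not matched), and were searched on both strands for a direct repeat of any pair of the half-sites AGGTCA and AGTTCA or of the variants GGGTCA and GGTTCA with 1, 2 or 5 bases between them. The printed bases are chr19:37697558-37697797 on the plus strand, 5′ to 3′, with the match in capitals.
Cyp26a1: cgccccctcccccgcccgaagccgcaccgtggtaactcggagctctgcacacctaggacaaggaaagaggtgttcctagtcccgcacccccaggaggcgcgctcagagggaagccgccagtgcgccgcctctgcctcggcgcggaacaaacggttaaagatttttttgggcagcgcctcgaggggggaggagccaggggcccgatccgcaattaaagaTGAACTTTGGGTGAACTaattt
The capitals lie at chr19:37697776-37697792, bases -32 to -16 from the RefSeq start, and read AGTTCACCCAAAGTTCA on the minus strand, half-sites 5 bases apart. Of 32851 such windows over all genes, 32 (0.0974%) held the repeat with 5 bases between, 73 (0.222%) that with 1 and 88 (0.268%) that with 2. The match describes letters in the window and shows neither binding nor a response in these cells.

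Cyp26b1 (chr6:84571414-84593908), the other hydroxylase, had the class order of Cyp26a1 in the wild-type library but not in the mutant, where Scx-high cells held 2 UMIs. It had the fewest UMIs of the 8 genes (101 over both libraries). In the wild-type library it was counted at 9.56 CPM in Scx-high cells (47 UMIs), 6.0 in fibroblasts (20 UMIs) and 4.15 in other cells (5 UMIs), and the Scx-high to fibroblast ratio of 1.59 had an interval, 0.926 to 2.84, that included equality. In the mutant library it was at 1.85 in Scx-high cells (2 UMIs), 3.80 in fibroblasts (23 UMIs) and 3.57 in other cells (4 UMIs). The mutant to wild-type ratio in Scx-high cells was 0.193 (0.0227 to 0.738). None of the 62 wild-type Scx-high cells with Cyp26a1, after every cell was thinned to 1500 UMIs, held Cyp26b1, against 19 of 1027 without Cyp26a1, a difference not detectable at this depth (0 to 5.78% against 1.12 to 2.87%).

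Set against each other, the sums of the 2 enzyme groups gave opposite class orders. Wild-type Scx-high cells held 161 Aldh1a and 308 Cyp26 UMIs, or 0.523 Aldh1a UMIs per Cyp26 UMI (0.429 to 0.635), and wild-type fibroblasts 184 and 23, or 8.0 (5.17 to 12.9). Mutant Scx-high cells held 32 and 108, or 0.296 (0.193 to 0.443), and mutant fibroblasts 409 and 53, or 7.72 (5.79 to 10.5). In both libraries there were therefore more UMIs of synthesis genes than of degradation genes in fibroblasts and fewer in Scx-high cells. The Aldh1a sum was 1.69 times higher in fibroblasts than in Scx-high cells in the wild-type (1.36 to 2.10) and 2.29 times in the mutant (1.60 to 3.39), and the Cyp26 sum was 9.08 times (5.94 to 14.5) and 11.4 times (8.12 to 16.1) higher in Scx-high cells. On the log2 scale the wild-type Aldh1a ratio was 0.75 (0.44 to 1.07), where the median over all genes was 0.46, inside that interval. In the mutant it was 1.19 (0.674 to 1.76), where that median was 0.14. Because the counts are of RNA and enzymes differ in activity, the ratio of counts is not a ratio of rates.

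Cells with UMIs of both groups were counted too. Of wild-type Scx-high cells, 120 of 1178 (10.2%) held a UMI of a dehydrogenase only, 154 (13.1%) of a hydroxylase only and 24 (2.04%) of both. Of mutant Scx-high cells these were 21 of 235 (8.94%), 36 (15.3%) and 8 (3.40%). In fibroblasts the dehydrogenase-only cells were 97 of 828 (11.7%) in the wild-type and 299 of 1910 (15.7%) in the mutant, and the hydroxylase-only cells 14 (1.69%) and 30 (1.57%). Most cells of both classes held neither, from 72.3% of mutant Scx-high cells to 86.2% of wild-type fibroblasts, at counts so low that a cell without a UMI cannot be called negative. Thinned to 1500 UMIs, which left out 89 wild-type and 19 mutant Scx-high cells and 43 and 171 fibroblasts, the hydroxylase-only share was 7.16% and 11.6% in Scx-high cells against 1.27% and 0.863% in fibroblasts.

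**Figure D2:**
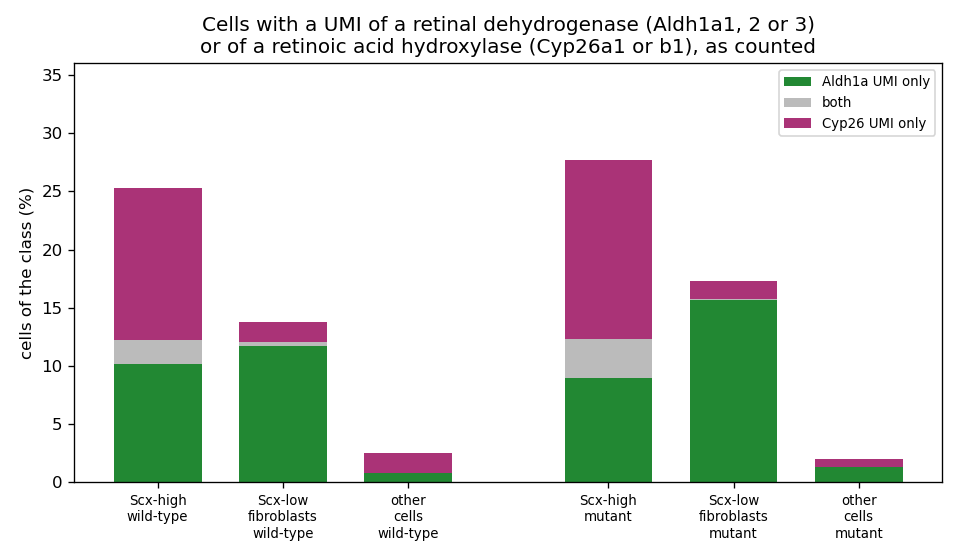
Percent of the cells of each class and library with at least 1 UMI of Aldh1a1, Aldh1a2 or Aldh1a3 only (green), of Cyp26a1 or Cyp26b1 only (purple) or of both (grey), as counted and stacked from 0. Cyp26-only cells reach 13.1% and 15.3% of Scx-high cells and stay at 1.69% and 1.57% of fibroblasts.

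Crabp1 (chr9:54764748-54773110) had opposite class orders in the 2 libraries. Wild-type Scx-high cells held 486 CPM (2389 UMIs in 776 of 1178 cells), fibroblasts 63.0 (210 UMIs in 111 of 828 cells) and other cells 11.6. Mutant Scx-high cells held 23.1 (25 UMIs in 15 of 235 cells), fibroblasts 240.1 (1452 UMIs in 552 of 1910 cells) and other cells 4.47. The Scx-high class was 7.71 times higher than fibroblasts in the wild-type (6.70 to 8.92) and the fibroblasts 10.4 times higher than Scx-high cells in the mutant (7.02 to 16.1).

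Read between libraries, Crabp1 was 21.1-fold lower in mutant than in wild-type Scx-high cells (14.2 to 32.6) and 3.81-fold higher in mutant fibroblasts (3.29 to 4.42). Among Scx-high cells with under 5 fibroblast-gene UMIs, 987 wild-type cells stood at 493 CPM (472 to 516). The 53 such mutant cells stood at 12.7 (1.54 to 45.9), which rests on 2 UMIs. Without the 5 highest cells of each library the ratio was 45.3-fold in place of 21.1-fold. Thinned, the share of cells with a Crabp1 UMI was 44.8% of wild-type Scx-high cells and 8.79% of fibroblasts, against 1.85% and 22.1% in the mutant. In red-cell-like, haemoglobin-rich cells, which are not known to use Crabp1, it was found as counted in 2 of 85 wild-type cells (2.35%, 0.286 to 8.24). In the mutant it was found in 0 of 79 (0 to 4.56%). Their median depths were 5639 and 4451 UMIs, but over 50% of each cell's UMIs lay on haemoglobin genes, which leaves fewer for other genes. The share was 65.9% of wild-type Scx-high cells at a median of 4285.5. The 6.38% of mutant Scx-high cells (median 4251) had an interval reaching down to 3.62%. In wild-type fibroblasts Crabp1 was higher in cells with 2 or more Tnmd UMIs, at 130.5 CPM (108 to 156), than in those with fewer, at 37.3 (29.998 to 45.9). The same split in mutant fibroblasts gave 280 (258 to 303) and 218 (203 to 233).

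Crabp2 (chr3:87948666-87953376) had the mirror image in Scx-high cells and an even summed level in fibroblasts. It was counted at 9.16 CPM in wild-type Scx-high cells (45 UMIs), 115 in fibroblasts (384 UMIs) and 1.66 in other cells. In the mutant it stood at 160 in Scx-high cells (173 UMIs), 114 in fibroblasts (689 UMIs) and 5.36 in other cells. The mutant to wild-type ratio was 0.989 in fibroblasts (0.871 to 1.12) and 17.4 in Scx-high cells (12.5 to 24.8). The mutant class order depended on which Scx-high cells were counted: fibroblasts held 0.713 times the Scx-high level (0.603 to 0.848), but 1.63 times when Scx-high cells with 5 or more fibroblast-gene UMIs were left out, at which the mutant to wild-type ratio in Scx-high cells was 9.54.

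Rbp4 (chr19:38116629-38125281) stood at 195 CPM over all mutant cells against 24.7 over all wild-type cells, a 7.93-fold ratio (6.90 to 9.13). Wild-type Scx-high cells held 4.48 CPM (22 UMIs in 12 cells), fibroblasts 63.3 (211 UMIs in 87 cells) and other cells none in 358. With a count of 0 taken to allow up to 3, the share of those cells with a UMI could reach 0.838% (exact upper limit 1.03%). Mutant Scx-high cells held 284 (308 UMIs in 50 of 235 cells), fibroblasts 213 (1290 UMIs in 293 of 1910 cells) and other cells 12.5 (14 UMIs). Both mutant classes lay above the wild-type ones, 63.5-fold in Scx-high cells (41.2 to 103) and 3.37-fold in fibroblasts (2.91 to 3.92).

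A few cells carried much of the Rbp4. The highest mutant Scx-high cell held 50 UMIs and the 5 highest held 49.7% of that class. Of the 308 UMIs, 148 lay in the 51 mutant cells just inside the class limit, at 30 to 60 Scx UMIs per 10000, where the level was 795 CPM (672 to 934), against 74.2 (37.0 to 133) in the 40 mutant fibroblasts just outside it, at 15 to 30. Fibroblasts held 0.750 times the Scx-high level in the mutant (0.662 to 0.852), but 1.30 times with a limit of 60 Scx UMIs per 10000, 1.26 times without the 5 highest cells of each class and 4.20 times without the Scx-high cells that held 5 or more fibroblast-gene UMIs. The direction between libraries in Scx-high cells was kept under the same 3 settings, but its size was 38.4-fold with the limit of 60 and 20.1-fold without the cells with fibroblast genes, and it was 102-fold without the 5 highest cells.

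RBP4 is also a product of fat cells, and the adipocyte marker list (Adipoq, Plin1, Cidec, Retn and Lep) was higher in mutant fibroblasts, at 31.7 CPM with 4 of the 5 genes detected, than in wild-type fibroblasts, at 1.80 with 2 detected. In Scx-high cells the list stood at 2.77 and 0.407 CPM. In mutant fibroblasts 25 of 1910 cells held any of these UMIs, and those cells held 81 of the 1290 Rbp4 UMIs. Without every cell that held one, the Rbp4 ratio of mutant to wild-type was 3.36 in fibroblasts and 62.9 in Scx-high cells. Among the other cells of the mutant, the 1 adipocyte-marker cell held 6 of the 14 Rbp4 UMIs. These markers were counted in few cells, so a fat cell can lack a UMI of all of them. The part of fat cells in the Rbp4 levels was not tested.

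Levels of Rbp4 also varied within fibroblasts. In the wild-type it was higher with Pi16, at 112 CPM (94.4 to 131), than without, at 31.0 (23.8 to 39.8), and in the mutant the order was turned, at 159 (138 to 183) with and 228 (214 to 242) without. Mutant fibroblasts with 2 or more Tnmd UMIs held 296 (273 to 319), against 167 (154 to 180) with fewer. Cycling mutant fibroblasts held 398 (347 to 454) and the others 195 (183 to 207), whereas cycling wild-type fibroblasts, at 74.2 (48.9 to 108), overlapped the others at 62.0 (53.4 to 71.6).

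**Figure D3:**
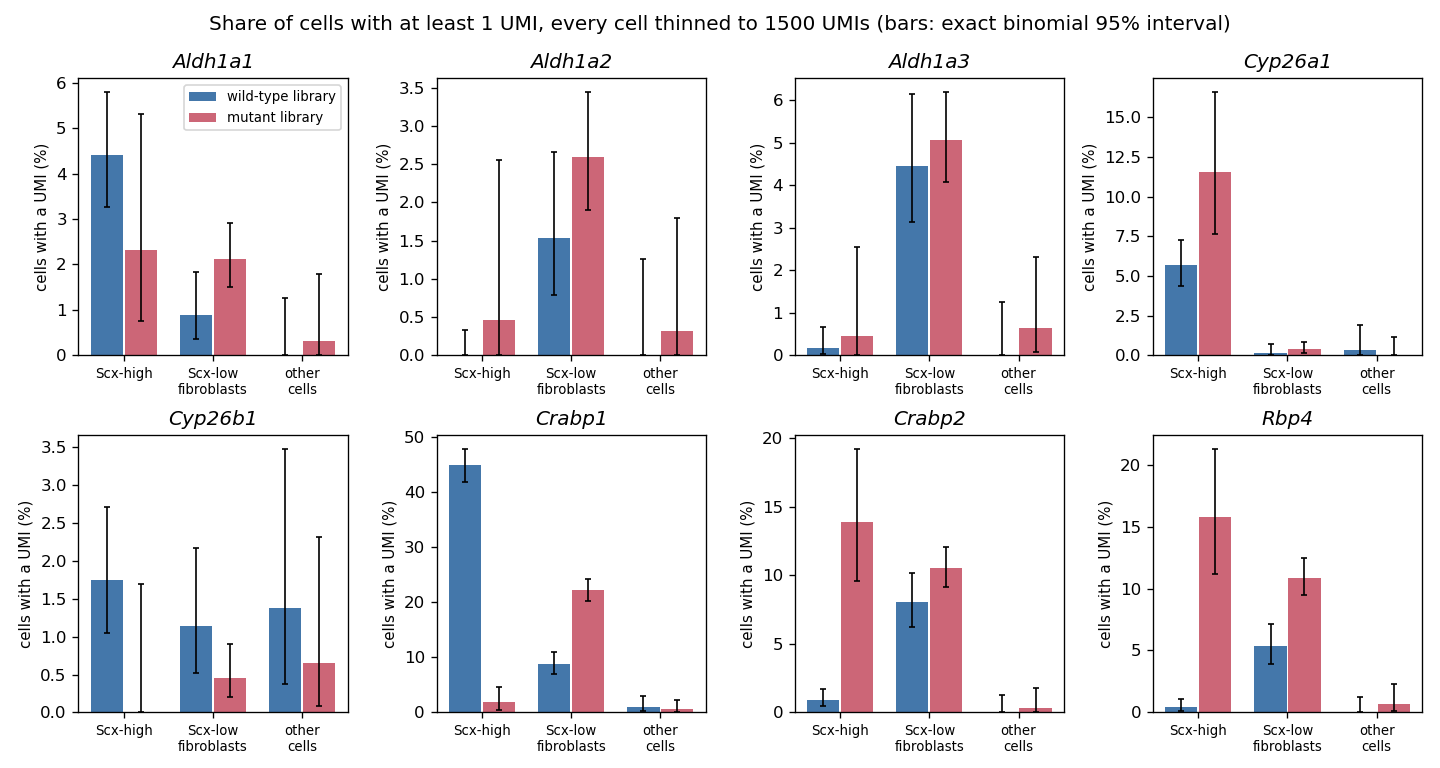
Percent of cells with at least 1 UMI of each gene (linear axes, each from 0) after every cell was thinned to 1500 UMIs, by class and library (blue wild-type, red mutant); error bars are exact binomial 95% intervals. With depth made equal, Crabp1 is detected in 44.8% of wild-type and 1.85% of mutant Scx-high cells, and Rbp4 in 0.459% and 15.7%.

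Counted together, 4 of the 8 genes (Aldh1a2, Aldh1a3, Crabp2 and Rbp4) were at least 2-fold higher in fibroblasts than in Scx-high cells of the wild-type library and 3 (Aldh1a1, Cyp26a1 and Crabp1) at least 2-fold lower, where 22.0% and 5.74% of 10906 genes with 20 or more UMIs were. In the mutant library 4 (Aldh1a2, Aldh1a3, Cyp26b1 and Crabp1) were at least 2-fold higher, Cyp26b1 with an interval that included equality (0.509 to 18.0), and Cyp26a1 was lower, where 15.1% and 5.41% of 10859 genes were. For mutant over wild-type, Crabp2 and Rbp4 were at least 2-fold higher in Scx-high cells and Cyp26b1 and Crabp1 lower, of 6 members with 20 or more UMIs; over all genes these shares were 12.9% and 7.98%. In fibroblasts Aldh1a1, Cyp26a1, Crabp1 and Rbp4 were at least 2-fold higher in the mutant and none of the 8 as much lower, beside 5.61% and 6.37% of 11454 genes. Since the genes were chosen on these contrasts, nothing is read from the counts. The median log2 ratio of the members and of all genes was 1.49 and 0.46 for wild-type fibroblasts over Scx-high cells, 0.31 and 0.14 for the mutant ones, 0.10 and 0.27 for mutant over wild-type in Scx-high cells and 1.19 and -0.02 in fibroblasts.

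**Figure D4:**
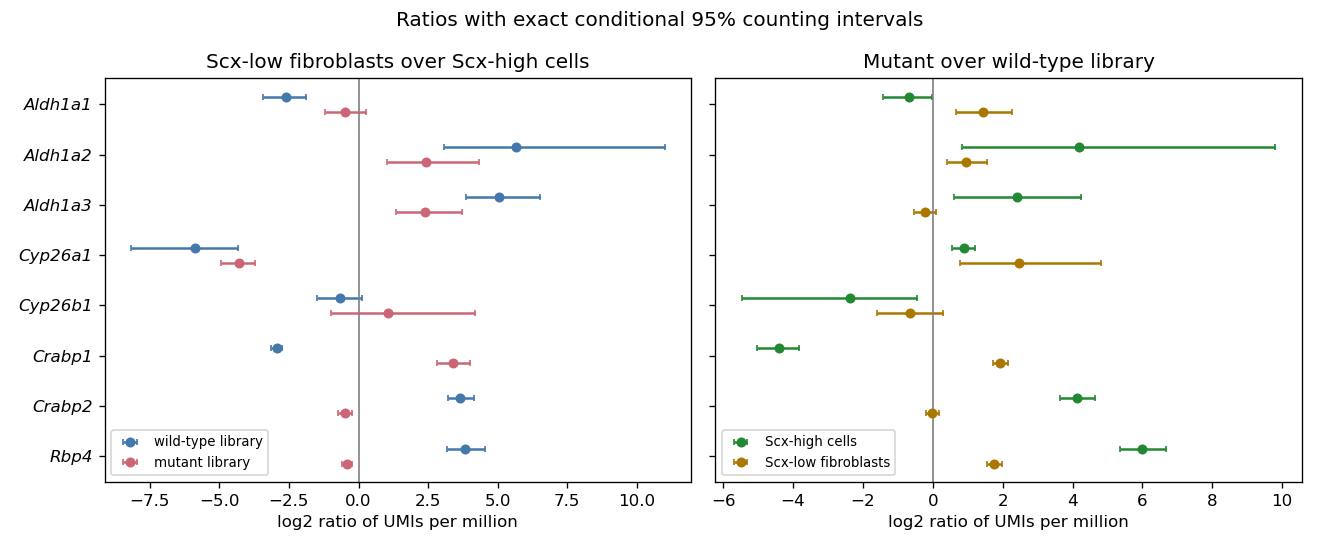
Log2 ratios of CPM with exact conditional 95% intervals for the 8 genes, on the left Scx-low fibroblasts over Scx-high cells in the wild-type (blue) and mutant (red) library, on the right the mutant over the wild-type library in Scx-high cells (green) and Scx-low fibroblasts (ochre). The grey line marks equality; with both intervals clear of it, Crabp1, Crabp2 and Rbp4 lie on opposite sides in the 2 libraries on the left, and Crabp1 and Aldh1a1 in the 2 classes on the right. Cyp26b1 on the left and Aldh1a3 and Crabp2 on the right also have points on opposite sides, with 1 or both intervals across the line. The mutant Crabp2 and Rbp4 ratios on the left cross equality when Scx-high cells with 5 or more fibroblast-gene UMIs are left out.

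Taken as a class, the other cells held few UMIs of the members, but their groups were uneven. Haemoglobin-rich cells (85 and 79) held at most 2 UMIs of any member. No member exceeded 12.5 CPM in the other class of either library, and the immune-marker cells (174 and 177), the largest group in that class, held at most 2 UMIs of any member. Mural-marker cells, which surround vessels, held 3 of the 5 wild-type and all 4 mutant UMIs of Cyp26b1 in this class, or 22.5 CPM (4.63 to 65.7) in 43 cells and 34.3 (9.33 to 87.7) in 49. In the mutant they also held all 3 Aldh1a2 UMIs of this class, or 25.7 CPM (5.30 to 75.1). The mural list was not confined to this class. It stood at 759 CPM in wild-type fibroblasts against 627 in other cells, and at 167 against 619 in the mutant. The 31 wild-type cells that matched no marker list held 9 UMIs of Crabp1, or 150.1 CPM (68.6 to 285).

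Levels were also read in cells on either side of the class limits. In the wild-type, 57 cells just inside the Scx limit held 354 CPM of Crabp1 (272 to 453) and 57 fibroblasts just outside it 199 (138 to 278), with overlapping intervals. Both values lay between the means of their classes. The same cells held 1 and 0 UMIs of Cyp26a1 and 0 and 0 of Aldh1a1. Just inside the limit the levels were 5.62 CPM of Cyp26a1 (0.142 to 31.3) and 0 of Aldh1a1 (0 to 20.7), against 53.1 and 31.3 in all wild-type Scx-high cells. Just outside it, 0 UMIs allow up to 21.6 CPM. That is above the level of either gene in all wild-type fibroblasts, so no difference from them can be read. In the mutant, 59 cells with 5 or 6 fibroblast-gene UMIs held 90.0 CPM of Crabp1 (46.5 to 157, 12 UMIs) and 45.0 of Rbp4 (16.5 to 97.9, 6 UMIs). The 56 cells with 3 or 4, which fall in the other class, held 15.7 (1.90 to 56.6, 2 UMIs) and 0 (0 to 28.9). For both genes the intervals overlapped.

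Of the rest of the retinoid pathway, a list of 45 genes was followed, of which 8 were at 0 in both libraries and 17 had 200 or more UMIs. Of those reported here, 4 (Rara, Rarres2, Fabp5 and Rdh14) were at least 2-fold higher in fibroblasts than in Scx-high cells of the wild-type library, and none of the 17 was as much lower. In the mutant library 4 of the 17 (Rara, Rarres2, Lpl and Dgat1) were at least 2-fold higher and Dhrs3 lower. The shares over all genes given above, 22.0% and 15.1% higher and 5.74% and 5.41% lower, stand beside these counts. Rara, a retinoic acid receptor, was higher in fibroblasts in both, at 36.9 against 14.2 CPM in the wild-type (2.59-fold, 1.92 to 3.53) and 46.3 against 21.2 in the mutant (2.18-fold, 1.42 to 3.50). Rarres2, the chemerin gene, likewise stood at 404 against 137 and 285 against 74.8. Unlike Rara, the other nuclear receptor genes on the list with 200 or more UMIs stayed under 2-fold between these classes in both libraries.

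Dhrs3, which reduces retinal back to retinol and is known as a retinoic acid-induced gene, stood at 22.0 CPM in Scx-high cells and 36.9 in fibroblasts of the wild-type and at 61.9 and 29.9 in the mutant. Its fibroblast to Scx-high ratio was 1.68 (1.29 to 2.20) and 0.484 (0.364 to 0.650). Fabp5, a lipid carrier that can take up retinoic acid, was 4.59-fold higher in wild-type fibroblasts (3.61 to 5.89) and 1.08-fold in the mutant, with an interval (0.744 to 1.61) that included equality.

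Further genes past 2-fold in either library act around retinol and its esters. Lpl, lipoprotein lipase, was at 112 CPM in wild-type fibroblasts and 87.7 in Scx-high cells, and at 166 and 24.0 in the mutant (6.89-fold, 4.68 to 10.6). Rdh14, a retinol dehydrogenase family member, was 2.04-fold higher in wild-type fibroblasts (1.66 to 2.50) and 1.38-fold in the mutant (1.01 to 1.93). Dgat1, an acyltransferase, was 1.15-fold (0.748 to 1.75) and 2.00-fold (1.08 to 4.12) higher.

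Over 13 groups of at least 30 cells from the 2 libraries, the gene whose log2 level followed Cyp26a1 best was Fhod3 (Pearson r = 0.895 among 7182 genes), then Scx (0.878), on which the classes were cut, and Aldh1a1 (0.870). Aldh1a1 was nearest to Rhou (0.942) and Jam2 (0.890), and Aldh1a3 to Osr2 (0.942) and Gdf10 (0.918). Crabp1 was nearest to Cpz (0.947) and Kctd1 (0.926). Crabp2 and Rbp4 were near each other (0.954), Crabp2 being nearest to Bdh2 (0.957) and Rbp4 to Crabp2. The groups share libraries and depth, so these values are descriptions. Aldh1a2 (163 UMIs) and Cyp26b1 (101) held too few UMIs to be compared in this way.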

How the data were processed

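The deposited values were raw UMI counts per gene and cell, made by the authors with Cell Ranger (1.2.0 in the submitters' processing notes, 2.0 in the methods) on mm10, with barcodes kept by their total UMIs; the annotation is not given in the sources used here. All barcodes were used. Counts were summed per class and library and given as CPM (UMIs per 1000000); intervals were exact (Poisson for levels, Clopper-Pearson for shares, conditional binomial for ratios, all 95%) and covered counting error only. A count of 0 was taken to allow up to 3. Shares were also read after thinning to 1500 UMIs. Calls were ratios of at least 2. Pathway genes were named when they had 200 UMIs and a ratio past 2 in a library, except for 1 that is not reported here; likeness used log2(CPM + 10). Scrublet (scanpy 1.11.5) marked 10 and 5 doublets, under 0.5% of cells, so doublets were in effect kept. Intervals were tested on counts simulated with Poisson error only, so the test does not cover UMIs that cluster in a few cells. In addition, 15 alternative settings were tried. With 1 library per genotype no test was made. Coordinates came from GENCODE and promoters from RefSeq (GRCm38). Members and lists were chosen with earlier results of these data known. Python 3.11.15, NumPy 2.4.6 and SciPy 1.17.1 were used.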

Additional observations from a re-analysis of the deposited data

Results flagged for a closer look

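The fibroblast to Scx-high ratio lay on opposite sides of equality in the 2 libraries, with both counting intervals clear of equality, for 3 genes, and the difference was not tested, since each genotype has 1 library. For Crabp1 the ratio was 0.130 for wild-type cells and 10.4 for mutant cells. For Crabp2 it was 12.6 and 0.713, and for Rbp4 14.1 and 0.750. The mutant ratios of Crabp2 and Rbp4 depended on which Scx-high cells were counted. Without Scx-high cells holding 5 or more fibroblast-gene UMIs they crossed equality, to 1.63 and 4.20. The mutant Rbp4 ratio was also 1.30 at a limit of 60 Scx UMIs and 1.26 without the 5 highest cells. The mutant to wild-type ratio lay on opposite sides in Scx-high cells and fibroblasts, again with both intervals clear of equality, for Crabp1, at 0.0475 and 3.81, and for Aldh1a1, at 0.619 and 2.69, again untested. The Aldh1a1 ratios rest on 21 UMIs in mutant Scx-high cells (interval 0.372 to 0.980) and 17 in wild-type fibroblasts (1.58 to 4.84). With under 5 fibroblast-gene UMIs, Scx-high cells stood at 25.4 CPM in the mutant (6.92 to 65.0) and 32.8 in the wild-type (27.4 to 38.9).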

How the results depend on the processing

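Over 12 planned settings and 3 chosen after seeing the data (without the 5 highest cells, Scx-high cells with under 5 fibroblast-gene UMIs, and without cells with an adipocyte-marker UMI), 40 ratios were recomputed. Over the planned settings, the fibroblast to Scx-high ratio of the Aldh1a sum lay between 1.35 and 1.80 in the wild-type and 1.98 and 2.54 in the mutant, and the Scx-high to fibroblast ratio of the Cyp26 sum between 7.48 and 17.1 and between 10.2 and 13.9. The first of these, 0.75 on the log2 scale, was 0.44 when the total left out the 20 most abundant genes. The wild-type Cyp26 ratio, -3.18 on the log2 scale as fibroblasts over Scx-high cells, was -4.10 for fibroblasts with under 5 Scx UMIs per 10000 and -3.91 without the 5 highest cells. In fibroblasts the mutant to wild-type ratio of the Cyp26 sum, 1.27, ran from 0.806 (mean of per-cell levels) to 2.09, and that of Cyp26b1, 0.634, was 1.41 for fibroblasts with under 5 Scx UMIs. Leaving out the 5 highest cells took the Crabp1 fibroblast to Scx-high ratio in the mutant to 21.6 and the Rbp4 one in the wild-type to 32.0. At a limit of 60 Scx UMIs the wild-type Aldh1a3 ratio of 32.7 was 92.8. The cause was not tested. In all, 14 values crossed equality, among them those given above for Rbp4 and Crabp2 in the mutant, and each belonged to a ratio under 2-fold in either direction. A further 16 values could not be computed because a class held 0 UMIs. All 32 shares of cells were lower after thinning. Depth limits ratios that rest on a class with few UMIs, such as those of Aldh1a2, Aldh1a3 and Cyp26b1, at 2 to 7 UMIs in mutant Scx-high cells, and of Cyp26a1, at 3 in wild-type fibroblasts. No paired analysis was possible because each genotype has 1 library.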

Other observations

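Pairs of members were also read within single cells thinned to 1500 UMIs, as values with no test, and those given are a selection. In wild-type Scx-high cells Crabp1 was found in 40 of 62 cells with Cyp26a1 (64.5%, 51.3 to 76.3) and in 448 of 1027 without (43.6%, 40.6 to 46.7). In mutant fibroblasts Crabp1 was found in 34 of 88 cells with Aldh1a3 (38.6%, 28.4 to 49.6) and in 351 of 1651 without (21.3%, 19.3 to 23.3). Rbp4 went the other way there: 22 of 385 mutant fibroblasts with Crabp1 held it (5.71%, 3.62 to 8.52), against 167 of 1354 without (12.3%, 10.6 to 14.2). For the same pairs in wild-type fibroblasts the intervals overlapped. Crabp1 was found in 8.57% of those with Aldh1a3 (1.80 to 23.1) and 8.80% without (6.87 to 11.1). Rbp4 was found in 4.35% of those with Crabp1 (0.906 to 12.2) and 5.45% without (3.90 to 7.37). Cells with a UMI of 1 gene can differ in cell state from those without, which was not tested.

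The alcohol dehydrogenase gene Adh1, singled out after its values were seen, stood at 16.2 CPM in mutant and 1.80 in wild-type fibroblasts, a ratio of 9.0 (3.99 to 25.1), with 7 UMIs in the whole wild-type library and 100 in the mutant.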
